A study of Mus musculus with 12 samples.

Results

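Cytosolic sulfotransferases were examined as a family of 9 genes, Sult1a1, Sult1b1, Sult1c2, Sult1d1, Sult1e1, Sult2a1, Sult2a8, Sult3a1 and Sult5a1, chosen by name from the 52636 genes counted in each liver. Of the 9 genes, 6 averaged 12 or more counts in the 12 livers and were tested, and Sult1e1, Sult2a1 and Sult3a1 were near or at 0 counts and were not. Sult2a8 had the smallest p-value for diet. In offspring of vitamin D deficient mothers it was at 61.8% of the control level, or 70.3% without the lowest liver. That difference did not pass the test adjusted over all genes. Each of these livers was below every control liver, as in 0.57% of all genes, but the groups overlapped when libraries were scaled by total counts. Sult1c2 leaned the other way, at 159% of the control level, also without passing the adjusted test.

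These enzymes transfer a sulfonate group from the donor PAPS to the hydroxyl or amino group of small molecules, which makes the product more soluble in water and often ends its activity. In the liver the family acts on phenols and drugs, on thyroid hormones and catecholamines, on steroids and on bile acids, and sulfatases can remove the group again. Several members are known to differ between male and female rodent liver, where growth hormone sets the pattern.

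The mothers (F0) were C57Bl/6J females kept either on a vitamin D deficient diet (VDD) or on a vitamin D sufficient diet (VDS). The feeding began 5 weeks ahead of mating to males on a control diet and lasted until delivery. From then on every mother ate the VDS diet, as did the offspring (F1) once weaned. Females on VDD also received calcium gluconate. Total RNA from the left lateral lobe of male F1 livers was sequenced at 16 weeks of age, with 1 library per mouse for 6 VDD-F1 and 6 VDS-F1 mice and no pooling. The labels do not tie mice to litters, so the p-values measure the spread between these mice, some of which may be littermates.

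Each library held 14275793 to 20815066 counted fragments on the strand used, and 16432 to 18901 genes had a count. Values are given in CPM, a gene's share of the counted fragments of its library in parts of 1000000, with library sizes scaled by TMM (trimmed mean of M-values), which balances libraries on the bulk of their genes. The study records a liver weight for 7 of the mice (VDD4, VDD5 and VDD6 with VDS3, VDS4, VDS5 and VDS6) but not for the other 5. Both diets occur in each of these sets, and the diet contrast was also fitted within each set. The mouse VDD2 stood apart, with the lowest Sult2a8 level and the highest TMM factor, 1.14. The 15 hepatocyte markers, which include Alb and Cps1, summed to 118432 (VDD2) to 143418 CPM in VDD-F1 and 116112 to 134238 CPM in VDS-F1, and none was at 0 in any liver. A lower level in bulk liver cannot tell fewer cells of a type from less RNA per cell.

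The genes lie in a few clusters of the mouse genome (GRCm38). Sult1b1 (chr5:87513339-87538195), Sult1d1 (chr5:87554645-87569027) and Sult1e1 (chr5:87575969-87591594) are neighbours on the minus strand of chromosome 5. Sult2a1 (chr7:13796246-13837409) and Sult2a8 (chr7:14410686-14446769) lie on the minus strand of chromosome 7, and so does Sult1a1 (chr7:126672865-126676432), far from both. Sult1c2 (chr17:53829637-53846339) and Sult5a1 (chr8:123140192-123158315) are on the minus strand, and Sult3a1 (chr10:33857721-33879532) is on the plus strand.

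The stretches before the start sites of Sult2a8 and Sult1a1 are shown because these are the most abundant members and their diet contrasts had opposite signs. Both are the reference sequence from RefSeq (GRCm38.p6), on the minus strand, 5′ to 3′, and stop before the first annotated exon base. The Sult2a8 stretch lies within the annotated gene, before the start of its shorter transcripts, and the Sult1a1 stretch lies before the gene. Capitals mark matches, on either strand, to AGGTCA (the half-site of many nuclear receptors), TTCNNNGAA (the Stat5 site) or GCGTG (the Ahr core), and no matches overlapped.
Sult2a8, chr7:14438562-14438801: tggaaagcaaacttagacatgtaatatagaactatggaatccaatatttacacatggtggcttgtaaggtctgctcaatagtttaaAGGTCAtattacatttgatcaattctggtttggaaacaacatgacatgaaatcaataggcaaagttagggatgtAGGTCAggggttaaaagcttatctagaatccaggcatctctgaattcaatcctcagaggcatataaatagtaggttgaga
Sult1a1, chr7:126676433-126676668: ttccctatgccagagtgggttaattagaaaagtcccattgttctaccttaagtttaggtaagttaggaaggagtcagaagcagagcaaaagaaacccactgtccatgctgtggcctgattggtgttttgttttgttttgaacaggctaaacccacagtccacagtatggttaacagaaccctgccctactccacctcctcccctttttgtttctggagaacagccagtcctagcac
The Sult2a8 stretch held AGGTCA at 164 and 90 bases upstream of the start, and the Sult1a1 stretch held none of these motifs. The promoter table held 10 windows of 250 upstream bases for 8 of the 9 genes, a second Sult2a8 start with no match among them. Over all 32851 windows of that length, 14.0% held AGGTCA, 7.02% TTCNNNGAA and 28.2% GCGTG. Sult1b1 and Sult1e1 each had a window with 1 AGGTCA, at 123 and 113 bases upstream, Sult1d1 held GCGTG at 47 bases and the other Sult1b1 window held it at 196 bases, and the Sult3a1 window held TTCNNNGAA at 109 bases. The window of Sult5a1 held none of the 3 motifs. That of Sult1c2 held none either, but all of it lies in annotated exons, and in the second Sult2a8 window 68 of the 250 bases lie outside them. A match of letters is a description and does not show binding.

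Levels of different genes were compared per kb of annotated exon. In VDS-F1, Sult1a1 had 136 ± 43.1 CPM per kb (SD, n = 6) and Sult2a8 had 110 ± 16.8 CPM per kb, and these did not differ beyond their spread, since Sult1a1 was the higher in 3 of 6 mice. The order of the means differed between the sets. Sult1a1 and Sult2a8 averaged 109 and 114 CPM per kb in VDS-F1 mice with a recorded weight, and 191 and 102 CPM per kb in those without. Sult1d1 followed at 22.0 ± 8.85 CPM per kb, Sult1b1 at 4.87 ± 1.25 CPM per kb, Sult1c2 at 1.56 ± 0.582 CPM per kb and Sult5a1 at 0.346 to 1.72 CPM per kb. Below that pair, the neighbours in this order overlapped among the VDS-F1 mice in 1 case, Sult1c2 and Sult5a1. In VDD-F1 the order of these 6 was the same, but Sult1a1, at 161 ± 38.0 CPM per kb, was above Sult2a8, at 67.9 ± 24.8 CPM per kb, in 6 of 6 mice and with no overlap. This order depends on the exon length of all annotated transcripts together, 3284 bases for Sult2a8 and 1507 bases for Sult1a1. Which transcripts were present was not measured. In counts, Sult2a8 was the higher in VDD4, VDD5, VDD6 and every VDS-F1 liver. Sult2a8 and Sult1d1 (19.9 ± 5.55 CPM per kb) overlapped in VDD-F1, where Sult2a8 was the higher in 5 of 6 mice, all but VDD2. Together the 9 genes took 0.0502% to 0.0741% of the counted fragments in VDS-F1 and 0.0378% to 0.0650% in VDD-F1, and Sult1a1 and Sult2a8 held 78.0% to 90.3% of that. Both low ends were VDD2, and the next lowest values were 0.0460% in VDD-F1 and 86.1% over all livers.

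**Figure D1:**
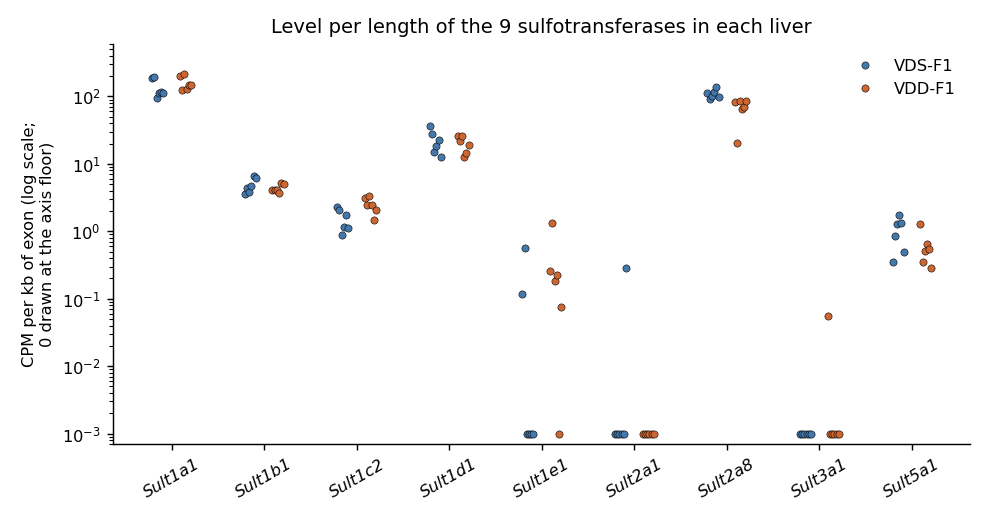
Level of each of the 9 sulfotransferases in each liver, in CPM per kb of exon on a log axis, with VDS-F1 and VDD-F1 side by side, 6 mice each. Livers with no count are drawn at the floor of the axis, and Sult1a1 and Sult2a8 sit above the other members in all but 1 liver, VDD2, where Sult2a8 was at 20.7 CPM per kb.

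Against diet, 0 of the 6 tested genes passed the rule for differentially expressed genes (DEGs), an adjusted p-value under 0.05 with a log2-fold change above 1 or below -1 in edgeR's quasi-likelihood test. Over all 12453 genes tested, 5 genes or 0.0402% passed it. At an unadjusted p-value under 0.05, 2 of the 6 were called, against 15.8% of all genes. One of them was lower in VDD-F1 (Sult2a8, against 6.29% of all genes in that direction) and the other higher (Sult1c2, against 9.55%). DESeq2 also called 0 of the 6 at an adjusted p-value under 0.05, where it called 4.05% of all genes, and it called the same count of 2 at an unadjusted p-value under 0.05, against 16.7% of all genes. The median log2-fold change was -0.15 over the 6 genes and 0.00 over all genes tested.

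Sult2a8 (ENSMUSG00000030378.15), which sulfates bile acids in mouse liver, was measured at 68.0 CPM in the lowest, 247 CPM in the median and 285 CPM in the highest VDD-F1 liver. The VDS-F1 livers had 299.8 CPM in the lowest, 354 CPM in the median and 454 CPM in the highest. With TMM scaling, all 6 VDD-F1 livers were below all 6 VDS-F1 livers, a separation in that direction that 0.57% of all genes showed. With total counts in place of TMM the groups overlapped, since VDD6 had 297 CPM and VDS2 had 295 CPM. The means were 223 ± 81.4 CPM in VDD-F1 and 361 ± 55.3 CPM in VDS-F1 (SD, n = 6), and the log2-fold change was -0.69 (SE 0.26, adjusted p = 0.213 by edgeR, with an unadjusted p of 0.0164). The adjusted p-value ran from 0.0551 to 0.341 over the 22 alternatives that kept both sets of mice. Without VDD2 the difference was smaller and tighter, at -0.51 (SE 0.12), with an unadjusted p of 0.000852 and an adjusted p of 0.123 by edgeR.

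**Figure D2:**
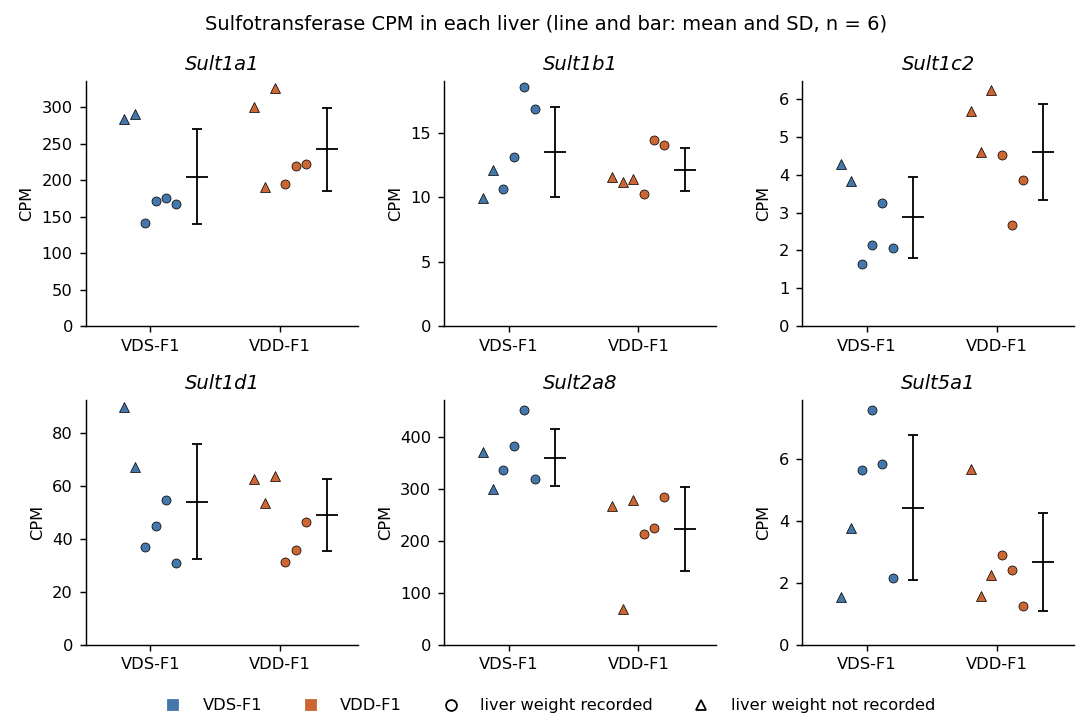
CPM of the 6 tested sulfotransferases in each liver, with points for mice (circles where the study records a liver weight, triangles where it does not) and the mean and SD of 6 mice at the side. Sult2a8 is the panel in which the diet groups do not overlap in these TMM-scaled values, with 68.0 to 285 CPM in VDD-F1 and 299.8 to 454 CPM in VDS-F1.

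Sult1c2 (ENSMUSG00000023122.6), a member of the SULT1C branch, was among the scarcer tested genes, with 24 to 90 counts in a library. The VDD-F1 livers had 2.68 CPM in the lowest, 4.56 CPM in the median and 6.25 CPM in the highest, and the VDS-F1 livers had 1.65, 2.70 and 4.29 CPM. The groups overlapped. The log2-fold change was 0.67 (SE 0.27, adjusted p = 0.243 by edgeR, with an unadjusted p of 0.0247), and it was positive in the fits of the mice with and without a recorded weight (0.69 and 0.44) and with any 1 mouse left out (0.55 to 0.82). The unadjusted p-value was above 0.05 without VDD1 (0.0530), VDD3 (0.0602), VDS3 (0.0540), VDS4 (0.0548) or VDS6 (0.0527), and in the mice without a recorded weight (0.174).

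Sult5a1 (ENSMUSG00000000739.14), whose substrates are little known, had the largest fitted difference of the 6 tested genes and the widest error. Its log2-fold change was -0.73 (SE 0.42, adjusted p = 0.413 by edgeR). Levels were 1.26 CPM in the lowest, 2.34 CPM in the median and 5.68 CPM in the highest VDD-F1 liver, and 1.53, 4.71 and 7.59 CPM in VDS-F1. The highest VDD-F1 liver was VDD1, and without it the log2-fold change was -1.10 with an adjusted p of 0.147 by edgeR.

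The other 3 tested genes differed less. Sult1a1 (ENSMUSG00000030711.15), the main phenol sulfotransferase, had 191 (VDD2) to 327 CPM in VDD-F1 and 141 to 291 CPM in VDS-F1, with a log2-fold change of 0.24 (SE 0.20, adjusted p = 0.588 by edgeR). Sult1b1 (ENSMUSG00000029269.11), which acts on thyroid hormones, had 10.2 to 14.5 CPM in VDD-F1 and 9.92 to 18.6 CPM in VDS-F1, with a log2-fold change of -0.15 (SE 0.16, adjusted p = 0.687). Sult1d1 (ENSMUSG00000029273.10), which acts on catecholamines, had 31.4 to 64.0 CPM in VDD-F1 and 30.8 to 89.9 CPM in VDS-F1, with a log2-fold change of -0.14 (SE 0.25, adjusted p = 0.823). In each of the 3 the diet groups overlapped widely.

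Within the 7 mice with a recorded liver weight, 2 of the 6 genes passed an adjusted p-value under 0.05 in edgeR, and neither reached a log2-fold change of 1 in size. Sult2a8 was lower in VDD-F1, as were 5.12% of all genes by this rule, and Sult1a1 was higher, as were 5.85%. Sult2a8 had 213, 226 and 285 CPM in the 3 VDD-F1 livers and 337, 383, 454 and 319.8 CPM in the 4 VDS-F1 livers, with a log2-fold change of -0.63 (SE 0.14, adjusted p = 0.0126 by edgeR). Sult1a1 had 194, 219.7 and 222 CPM in VDD-F1 and 141, 171, 175 and 167 CPM in VDS-F1, with a log2-fold change of 0.37 (SE 0.10, adjusted p = 0.0277 by edgeR). These were the 2 of 6 genes whose groups did not overlap in this set, against 23.4% of all genes in either direction. Sult5a1 had 2.88, 2.42 and 1.26 CPM in VDD-F1 against 5.64, 7.59, 5.83 and 2.15 CPM in VDS-F1, and its log2-fold change of -1.31 (SE 0.40) had an adjusted p of 0.0583 by edgeR.

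Within the 5 mice without a recorded weight, 0 of the 6 genes reached an unadjusted p-value under 0.05 in edgeR, where 3.79% of all genes did. This set has 3 VDD-F1 and 2 VDS-F1 mice. Sult2a8 had 267, 68.0 and 279 CPM in VDD-F1 and 372 and 299.8 CPM in VDS-F1, which again did not overlap, with a log2-fold change of -0.72 (SE 0.54). Without VDD2, a fit added after the values were seen, it was -0.30 (SE 0.17, with an unadjusted p of 0.107). Sult1d1 was the other of 2 genes whose VDD-F1 livers were all lower in this set, which 9.5% of all genes showed. Sult1c2 was the 1 gene whose VDD-F1 livers were all higher, as were 8.96% of all genes, with 5.68, 4.59 and 6.25 CPM against 4.29 and 3.84 CPM (log2-fold change 0.44, SE 0.29). Sult1a1 had 301, 191 and 327 CPM in VDD-F1 and 284 and 291 CPM in VDS-F1, with a log2-fold change of -0.08 (SE 0.25), and the 191 CPM was VDD2, without which it was 0.12 (SE 0.15). Sult1b1 (0.05, SE 0.19) and Sult5a1 (0.26, SE 0.67) had the opposite sign to the other set, with VDD2 or without it (0.06 and 0.60). The test of whether the diet contrast differed between the sets called 0 of the 6 genes at an adjusted p-value under 0.05, and 0.0883% of all genes. It called 0 of them also at an unadjusted p-value under 0.05, in edgeR and in DESeq2, where 9.01% and 9.33% of all genes were called, with the smallest edgeR p-values at 0.0779 for Sult5a1 and 0.0914 for Sult1a1.

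**Figure D3:**
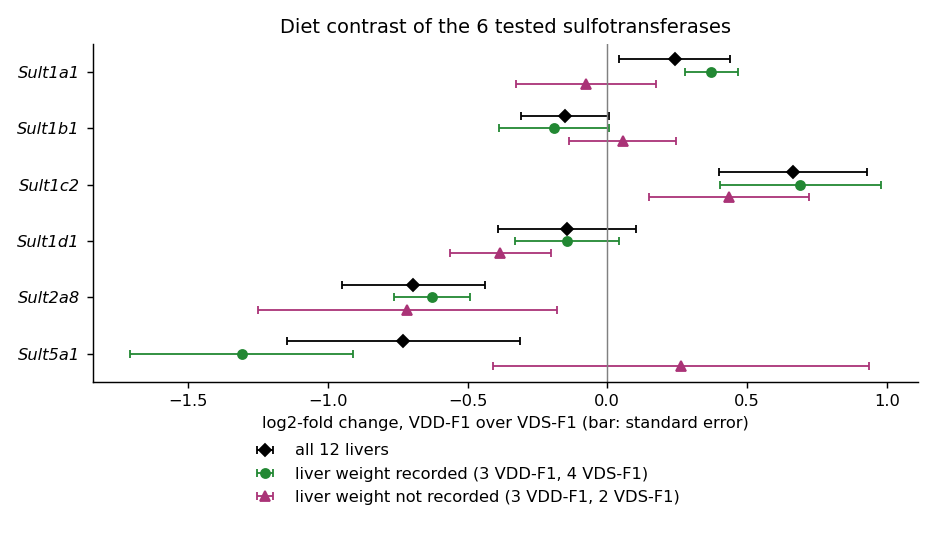
Log2-fold change of VDD-F1 over VDS-F1 with its standard error for the 6 tested genes, in all 12 livers and within each set of mice. Sult2a8 lies left of 0 in all 3 fits (-0.69, -0.63 and -0.72) and Sult1c2 right of 0, and Sult5a1 lies at -1.31 in one set and at 0.26 in the other.

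The sets were also compared with each other, a contrast that was added after the values were seen. With diet in the fit, 2 of the 6 genes were lower in mice with a recorded weight at an adjusted p-value under 0.05, against 1.56% of all genes. Sult1d1 had 89.9 and 67.1 CPM in the VDS-F1 mice without a recorded weight and 37.1, 44.8, 54.9 and 30.8 CPM in those with one, and in VDD-F1 it had 62.8, 53.8 and 64.0 CPM against 31.4, 35.9 and 46.3 CPM. Sult1d1 and Sult1c2 were the 2 of 6 genes lower in the recorded set with no overlap in either diet, against 2.06% of all genes. For Sult1d1 the log2-fold change between the sets was -0.78 (SE 0.15, adjusted p = 0.0125 by edgeR). Sult1a1 was lower by the same measure, at -0.58 (SE 0.13, adjusted p = 0.0368), and its sets were apart in VDS-F1. In VDD-F1 VDD1 and VDD3, at 301 and 327 CPM, lay above the mice with a recorded weight (194 to 222 CPM), and VDD2, at 191 CPM, lay below them. Without VDD2 the set difference was -0.69 for Sult1a1 (SE 0.08) and -0.83 for Sult1d1 (SE 0.15). Sult1c2 had -0.70 (SE 0.20, adjusted p = 0.102), Sult1b1 0.30 (SE 0.15, adjusted p = 0.407), Sult5a1 0.18 (SE 0.46, adjusted p = 0.915) and Sult2a8 0.20 (SE 0.26, adjusted p = 0.815), and without VDD2 the value for Sult2a8 was -0.01 (SE 0.12). What else distinguishes the sets is not given in the sources used here.

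Because Sult2a8 and Sult1a1 carry most of the family's RNA, their counts were also set against each other within each library, a ratio that no scaling between libraries touches. It was added after the values were seen and is given with no test. Sult2a8 counts were 0.357 to 0.890 times those of Sult1a1 in VDD-F1 and 1.03 to 1.31 times in VDS-F1 among mice without a recorded weight. The 0.357 was VDD2, and the other VDD-F1 mice of that set had 0.854 and 0.890. Among mice with a recorded weight the ratios were 1.03 to 1.29 in VDD-F1 and 1.92 to 2.59 in VDS-F1. The diets were apart within both sets, and the ratios of VDD-F1 mice of one set met those of VDS-F1 mice of the other. Sult2a8 made up a median of 43.0% of the family's counts in VDD-F1 and 60.5% in VDS-F1, and Sult1a1 44.9% and 29.3%.

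**Figure D4:**
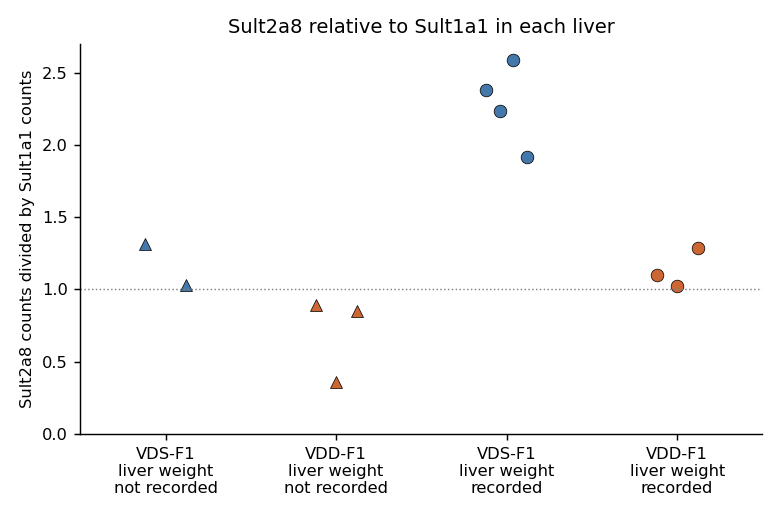
Sult2a8 counts divided by Sult1a1 counts in each liver, by diet and by whether the study records a liver weight, with the dotted line at equal counts. Within each set every VDD-F1 mouse lies below every VDS-F1 mouse, and the VDS-F1 mice with a recorded weight are the highest, at 1.92 to 2.59.

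The 3 genes that did not pass the filter are best known from other settings. Sult1e1, the estrogen sulfotransferase, had 5, 32, 3, 4, 0 and 2 counts in the VDD-F1 libraries and 3, 12, 0, 0, 0 and 0 in VDS-F1, so that VDD2 and VDS2 held most of its reads. Sult2a1, a hydroxysteroid sulfotransferase, had 0 counts in 11 libraries and 4 in VDS6. Sult3a1, which sulfates amines and is known from female mouse liver, had 1 count, in VDD1. A count of 0 allows a level of up to 0.140 to 0.226 CPM in these libraries, from 3 counts each and for counting error only. Of the stretches of 100 bases in Sult2a1 transcripts, 88.6% occur in no other gene, and reads from the shared rest are not unique to it. For Sult1a1 that share was 98.2% and for the other 7 genes it was 100%. The other 12 annotated Sult genes all had a mean below the filter. Sult2a7 had 0 to 25 counts in a library, Sult4a1 0 to 5 and Sult2b1 0 to 6, and the remaining 9 had none.

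The genes whose log2 CPM over the 12 livers was most like that of Sult2a8, by Pearson's r among 12436 genes outside the family, were Hsd3b5 (r = 0.964), D130020L05Rik (0.963), Pipox (0.959), Ak3 (0.959) and Glo1 (0.959). Hsd3b5 is a steroid dehydrogenase of male mouse liver, and it had 55.9 ± 37.7 CPM in VDD-F1 and 184 ± 24.9 CPM in VDS-F1 (SD, n = 6). Pipox breaks down pipecolic acid in peroxisomes, Ak3 is a mitochondrial adenylate kinase and Glo1 clears methylglyoxal. All 5 had a log2-fold change below 0, from -1.73 to -0.23. For Sult1c2 the most alike were Atp6v1f (r = 0.884), Dusp22 (0.879), Apoa1 (0.878), Rnf13 (0.876) and Cyp17a1 (0.870). These coefficients are across 12 livers that share the diet contrast, the sets and VDD2, and are a measure of likeness only.

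Of 10 listed genes for the supply of sulfate and PAPS, 8 were tested, 0 were DEGs in edgeR or DESeq2, and 1 was higher and 0 lower at an unadjusted p-value under 0.05, with a median log2-fold change of -0.09. That was 12.5% of the 8 tested, against 15.8% of all genes. The gene was Impad1, a phosphatase that clears the spent donor in the Golgi, at 70.7 ± 4.07 CPM in VDD-F1 and 59.3 ± 7.33 CPM in VDS-F1 (log2-fold change 0.25, SE 0.09, adjusted p = 0.197 by edgeR). The PAPS synthases Papss1 and Papss2 had log2-fold changes of -0.13 (SE 0.12) and -0.22 (SE 0.17), and the cytosolic phosphatase Bpnt1 -0.10 (SE 0.10). The sulfate carriers Slc26a1 and Slc26a2 had -0.08 (SE 0.10) and -0.04 (SE 0.15), and the Golgi PAPS carriers Slc35b2 and Slc35b3 0.06 (SE 0.10) and -0.23 (SE 0.17). The carriers Slc13a1 and Slc13a4 did not pass the filter. Papss2, the more abundant synthase in counts, was higher in mice with a recorded weight, by a log2-fold change of 0.50 with an adjusted p of 0.0467 in edgeR, the opposite sign to Sult1d1 and Sult1a1.

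Of 15 listed sulfatases and their activators, 12 were tested and 1 was called at an unadjusted p-value under 0.05, Sulf2, which trims heparan sulfate (log2-fold change 0.51, SE 0.20, adjusted p = 0.245 by edgeR), and 0 were called without VDD2. Of 27 Golgi sulfotransferases, 17 were tested and 1 was called, Gal3st1, which makes sulfatide, at 1.88 ± 0.712 CPM in VDD-F1 and 0.785 ± 0.319 CPM in VDS-F1 (log2-fold change 1.25, SE 0.38, adjusted p = 0.136 by edgeR). These were 8.33% and 5.88% of the genes tested in each list, against 15.8% of all genes. None of either list was a DEG in edgeR, and Gal3st1 was one in DESeq2 (adjusted p = 0.0415).

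Among 19 tested regulators known to act on these genes, 0 were DEGs in edgeR or DESeq2, 3 were lower and 0 higher at an unadjusted p-value under 0.05, and the median log2-fold change was -0.12. The 3 were 15.8% of the 19, against 6.29% of all genes lower and 15.8% called in either direction, and without VDD2 1 was lower. Nr1i3 (CAR), a drug sensor that induces sulfotransferases, had a log2-fold change of -0.83 (SE 0.35, adjusted p = 0.273 by edgeR), and Hnf4a, a master factor of hepatocytes, had -0.29 (SE 0.13, adjusted p = 0.301). Rxra, the partner of many nuclear receptors, had -0.20 (SE 0.10) and the bile acid receptor Nr1h4 (FXR) had -0.33 (SE 0.17). Within the mice with a recorded weight, 7 of the 19 were lower and 1 higher at an adjusted p-value under 0.05 in edgeR, with Nr1i3 at -1.68, where 5.12% of all genes were lower and 5.85% higher. The median of the 19 was -0.34 in that set and -0.07 in the other. Vdr, the vitamin D receptor, named here outside the rule, had 5 counts over all 12 libraries.

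Of 37 other conjugating enzymes tested, 0 were DEGs in edgeR or DESeq2, and 3 were higher and 6 lower at an unadjusted p-value under 0.05, with a median log2-fold change of -0.12. Together that was 24.3% of the 37 tested, against 15.8% of all genes, and without VDD2 4 were higher and 4 lower. Ugt1a1, which glucuronidates bilirubin, had 147 ± 40.1 CPM in VDD-F1 and 242 ± 32.7 CPM in VDS-F1 (log2-fold change -0.72, SE 0.16, adjusted p = 0.0855 by edgeR), close to Sult2a8 in size. Tpmt (-0.35) and Nat8 (-0.72) leaned the same way, and Ugt1a9 (1.13) and Gstm3 (1.37) the other way. The Ugt1a genes share exons, and fragments that fit more than 1 gene were set aside as ambiguous, so their counts leave out the shared part.

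All mice are labelled male, and 2 lists of genes known to be sex-biased in mouse liver were counted. Of 30 tested male-biased genes, 13 were lower and 0 higher at an unadjusted p-value under 0.05, 2 were DEGs (Mup1 and Mup12, at log2-fold changes of -3.32 and -3.17), and the median log2-fold change was -0.53. The 13 were 43.3% of the list, against 6.29% of all genes lower. Mup genes are near-identical copies, so counts of single copies are uncertain. Cyp7b1, an oxysterol hydroxylase of bile acid synthesis, had 81.1 ± 46.6 CPM in VDD-F1 and 260 ± 74.1 CPM in VDS-F1 (log2-fold change -1.68, adjusted p = 0.0918 by edgeR). Of 16 tested female-biased genes, 6 were higher and 0 lower at an unadjusted p-value under 0.05, 0 were DEGs in edgeR and 4 in DESeq2, which called 2.03% of all genes by that rule, and the median was 1.05. The 6 were 37.5% of the 16 tested, against 9.55% of all genes higher. The filter used the mean count over both diets, so a gene near 0 in VDS-F1 was tested only if it was higher in VDD-F1. Such a gene, Cyp2a4 among them, could not have come out lower. The share of 37.5% and the median of 1.05 therefore describe the 16 tested and not the 27 listed. How many of the 16 passed in this way was not counted. The mean log2 CPM and summed CPM below take in all 27, whether they passed or not. Without VDD2 the counts were again 13 and 6. Cyp2a4, a steroid hydroxylase of female liver, had 2, 774, 0, 527, 505 and 541 counts in the VDD-F1 libraries and 0 to 8 in VDS-F1, so VDD1 and VDD3 were within the range of VDS-F1 in this gene. In the mean log2 CPM of the 30 male-biased genes they were below that range, at 7.07 and 6.94 against at least 7.48 in VDS-F1. In the same measure of the 27 listed female-biased genes VDD1, at 0.15, was within the range of VDS-F1 and VDD3, at 0.28, was just above its highest value of 0.26, while in the summed CPM both were above it, at 224 and 203 CPM against at most 199 CPM.

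**Figure D5:**
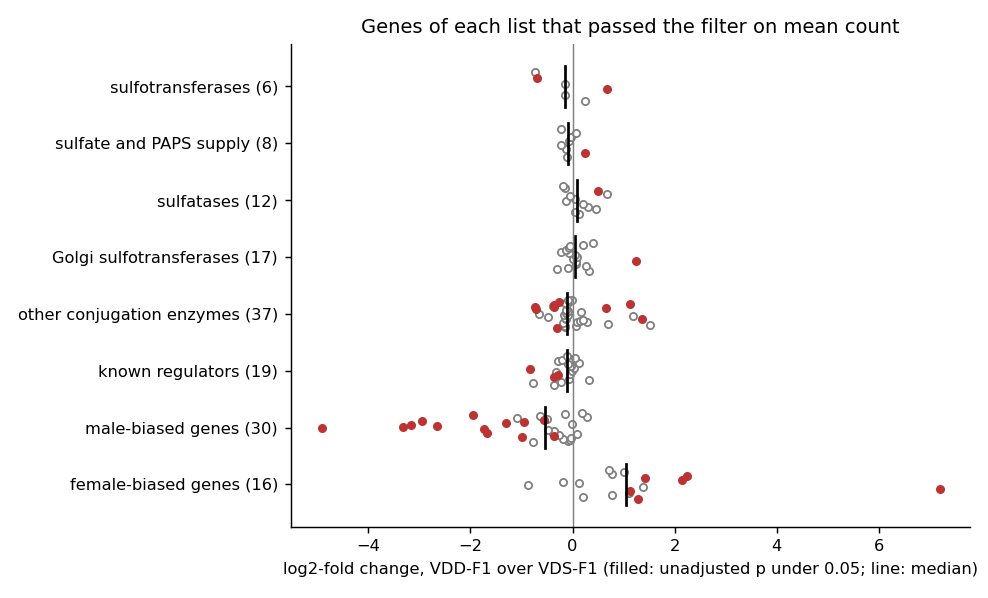
Log2-fold change of VDD-F1 over VDS-F1 for each gene that passed the filter in 8 lists, with filled points for an unadjusted p-value under 0.05 and a line at each list's median. The sulfotransferases have a median of -0.15, between the male-biased genes at -0.53 and the female-biased genes at 1.05.

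Markers of other liver cells were read beside Sult2a8. The 11 stellate cell and collagen markers all had a log2-fold change above 0, 6 of them (54.5%, against 9.55% of all genes higher) at an unadjusted p-value under 0.05, or 4 without VDD2, and they summed to 324 to 1070 CPM in VDD-F1 and 306 to 500.4 CPM in VDS-F1, with none at 0 in any liver. VDD2, the lowest in Sult2a8, was the highest in this sum, the next VDD-F1 liver had 669 CPM, and VDD1 overlapped VDS-F1. Of the 8 cholangiocyte markers, 6 were tested and 3 were higher (50%, against 9.55% of all genes), or 0 without VDD2, with sums of 44.6 to 135 CPM in VDD-F1 and 47.1 to 79.2 CPM in VDS-F1. Of all genes, 9.55% were higher and 6.29% lower, or 7.32% and 5.27% without VDD2. The 10 endothelial markers (1 higher and 2 lower, or 0 and 2 without VDD2) summed to 356 to 467 CPM and 346 to 498 CPM. The 10 macrophage markers (2 higher and 2 lower, or 1 and 4 without VDD2) summed to 182 to 464 CPM and 212 to 385 CPM. The 10 lymphocyte markers, with 0 of 4 tested higher and 1 lower with VDD2 or without it, summed to 6.25 to 33.1 CPM and 10.4 to 15.7 CPM, and VDD2 was the highest of VDD-F1 in all 4 of these sums. Without VDD2 the highest sums in VDD-F1 were 96.9 CPM for cholangiocytes, 443.5 CPM for endothelial cells, 287 CPM for macrophages and 15.3 CPM for lymphocytes. Of 8 intestine markers, 1 passed the filter, Fabp2, which the liver also holds at low levels. The part of these cells in the difference of Sult2a8 was not tested. The hepatocyte list, with 1 of 15 genes higher and 2 lower, had a median log2-fold change of 0.01, and without VDD2 it had 2 higher and 1 lower with a median of 0.06.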

How the data were processed

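Liver RNA libraries of 6 VDD-F1 and 6 VDS-F1 mice were prepared by the study from total RNA after removal of ribosomal RNA and sequenced in pairs. The authors aligned reads with STAR to GRCm38 (mm10) and deposited raw counts per gene from GENCODE M15, 1 count ignoring strand and 1 for each strand, with no normalization. The reverse-strand count was used, since it held 92.7% to 95.8% of the stranded counts. Symbols, positions and exon lengths came from GENCODE M21 (52403 of 52636 genes matched), upstream sequences from the RefSeq table of GRCm38.p6.

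Genes averaging 12 or more counts were fitted with edgeR 4.0.16 in R 4.3.3 (TMM, quasi-likelihood test in the legacy form, diet as the only term, Benjamini-Hochberg adjustment over 12453 genes). DEGs needed a log2-fold change over 1 in size besides an adjusted p-value under 0.05. DESeq2 1.42.0, limma 3.58.1 (voom), other scalings, filters, strands, sets of mice and each mouse left out were alternatives. The scripts were tested on simulated counts. The sex check list (Xist and 4 genes of the Y chromosome) had 0 of 4 tested genes at an unadjusted p-value under 0.05 in edgeR and in DESeq2.

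The members and gene lists were chosen with earlier results of these data known. Named were all members, every PAPS supply gene, up to 5 genes of smallest p-value from each other list (1 regulator is not reported here), and the 5 genes most like each of the 2 members of smallest p-value. Log2 CPM used a prior count of 2. A gene near the minimum count has few reads per library, and its fold change is imprecise.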

Additional observations from a re-analysis of the deposited data

Results flagged for a closer look

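VDD2 had 68.0 CPM of Sult2a8, apart from the other VDD-F1 livers, whose lowest had 213 CPM, by a gap of 0.669 of the group's range against a limit of 0.625 for 6 samples. VDD1 had 5.68 CPM of Sult5a1, and the next VDD-F1 liver had 2.88 CPM, a gap of 0.633 of the range. Such a limit is passed by chance in about 1 of 20 groups, and 12 groups were examined at both ends.

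The opposite-strand column, used in no comparison, held its highest counts of 3 members in the VDD-F1 library VDD5, above every VDS-F1 library. These were 60 counts of Sult1a1 (VDS-F1 at most 14), 41 of Sult2a8 (at most 7) and 5 of Sult1d1 (at most 1). VDD1 (22, 17 and 2 counts) was also above the VDS-F1 libraries in all 3, and VDD4 in Sult1a1 and Sult2a8 (24 and 8). Over the 12 livers the opposite strand held 0.371% as many Sult1a1 counts as the strand used and 0.155% as many Sult2a8 counts. Sult1a1 overlaps the opposite-strand gene Sgf29 by 61 bases.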

How the results depend on the processing

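At an adjusted p-value of 0.05, Sult1c2 kept its sign and stayed short of the threshold under all 24 alternatives, though 6 of them took its unadjusted p-value above 0.05. Sult2a8 kept its sign under all 24 and stayed short of the threshold under 23, the exception being the mice with a recorded liver weight, where it passed (log2-fold change -0.63), as did Sult1a1 (0.37). In the mice without a recorded weight the sign turned for Sult1a1 (-0.075), Sult1b1 (0.055) and Sult5a1 (0.26). Without VDD2 in that set it was 0.12 for Sult1a1, and the set difference of Sult2a8 turned to -0.0059. Leaving out 1 mouse at a time gave -0.78 to -0.51 for Sult2a8, 0.55 to 0.82 for Sult1c2, -1.10 to -0.50 for Sult5a1, 0.14 to 0.37 for Sult1a1, -0.23 to -0.04 for Sult1b1 and -0.26 to 0.061 for Sult1d1, whose sign turned without VDS1. The number of members at an unadjusted p-value under 0.05 was 1 to 3 with 1 mouse left out, 4 in the recorded set and 0 in the other, and the number of member DEGs was 0 throughout. The cause of these changes was not tested.

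The number of all genes called was 253 with DESeq2, 252 with voom, 17 with edgeR's newer form, 70 with no filter beyond 1 count, 21 with the set as a covariate, 536 in the recorded set, 0 in the other set, where 472 genes had an unadjusted p-value under 0.05, and 0 to 260 with 1 mouse left out (260 without VDD1, 93 without VDD3, 12 without VDS2, 1 without VDS6 and 0 without VDD4, VDD5, VDD6, VDS3, VDS4 or VDS5). Genes at an unadjusted p-value under 0.05 numbered 3208 with no filter, 3170 in the recorded set and 1545 to 2346 with 1 mouse left out. With DESeq2, DEGs numbered 1 of the Golgi sulfotransferases, 4 female-biased, 5 male-biased, 3 stellate and 1 macrophage genes. With total counts in place of TMM, the split of genes at an unadjusted p-value under 0.05 was 1377 higher and 506 lower, against 1189 and 783. The diet groups of Sult2a8 then overlapped, with VDD6 at 297 CPM and VDS2 at 295 CPM.

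With the replicate block, 17 genes were called and Sult2a8 had -0.80 (adjusted p = 0.180 by edgeR), and no member's call changed. The numbers do not pair the mice, since the correlation of same-numbered deviations was -0.08 to 0.10 and 0 of 6 VDD-F1 mice matched best with their own number.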
